A study of Mus musculus with 6 samples.

Results

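The genes described here encode 5 bone morphogenetic protein (BMP) ligands, Bmp2, Bmp4, Bmp5, Bmp6 and Bmp7, and 4 BMP receptors, Bmpr1a, Bmpr1b, Bmpr2 and Acvr1. They were chosen by gene symbol, and all 9 were found among the 49452 genes of the table. RNA was measured in the ectoderm of forelimb buds of mouse embryos at E10.5, with 3 libraries from Sp8 null embryos and 3 from wild-type embryos, each made from both forelimbs of a single embryo. Per the labels, null embryos came from intercrosses of heterozygotes for the allele Sp8-Cre-ERT2, wild-type embryos came from separate C57BL/6 crosses, and the background of both groups was C57BL6J. Genotype and cross therefore cannot be told apart. Sp8 encodes a DNA-binding zinc finger protein made in limb ectoderm, and the comparison asks which ectodermal transcripts differ when it is missing.

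BMPs are secreted ligands of the TGF-beta superfamily. They are cut from larger precursors and act as dimers on a complex of type I and type II receptor kinases, which phosphorylates SMAD1, SMAD5 and SMAD9. In the limb bud, BMP signalling to the ectoderm through the type I receptor encoded by Bmpr1a is needed to form the apical ectodermal ridge, the thickened rim that supports outgrowth, and for ventral identity. Later, the ridge itself is a source of BMP2, BMP4 and BMP7.

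Bmp4 was 3.33-fold lower in Sp8 null ectoderm, and the summed level of the 5 ligands was at 44.4% of wild type. Bmp5, a ligand of low level, was also called lower, but this call was narrow. No receptor passed the test, and neither Bmp2 nor Bmp7 did. Of the 9 genes, 8 reached the filter on low values, and 2 of these were called, both lower in Sp8 null. Over all 12133 tested genes, 6.83% were called in either direction, 5.15% lower and 1.68% higher in Sp8 null. A gene is called where limma's Benjamini-Hochberg adjusted p, computed over all tested genes, is under 0.05. The levels are in FPKM, fragments scaled to transcript length and to the mapped fragments of the library, and can be compared between genes because they are per length. Fold changes from limma compare log2(FPKM + 1), so those of low genes are understated.

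Because Bmp4 and Bmp5 were the members called, the 250 bases upstream of their RefSeq start sites (GRCm38.p6) are shown, written 5′ to 3′ on the strand of the gene. Both strands were searched for the GC box GGGCGG, a letter pattern known for binding Sp family proteins, and capitals mark a match. The Bmp4 window lies at chr14:46390670-46390919 on the minus strand and the Bmp5 window at chr9:75775115-75775364 on the plus strand.
Bmp4: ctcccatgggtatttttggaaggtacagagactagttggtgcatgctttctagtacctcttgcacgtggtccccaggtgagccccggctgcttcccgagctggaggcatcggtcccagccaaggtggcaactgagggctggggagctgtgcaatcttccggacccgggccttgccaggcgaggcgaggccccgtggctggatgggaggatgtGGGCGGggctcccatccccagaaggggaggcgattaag
Bmp5: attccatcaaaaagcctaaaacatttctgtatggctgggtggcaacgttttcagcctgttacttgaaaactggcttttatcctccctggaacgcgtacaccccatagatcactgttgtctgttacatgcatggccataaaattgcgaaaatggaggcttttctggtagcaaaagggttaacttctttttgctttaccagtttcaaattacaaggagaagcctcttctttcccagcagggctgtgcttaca
The Bmp4 window held 1 GC box, whose first base lay 38 bases before the start site, and the Bmp5 window held none. Windows were listed for 7 of the 9 genes: Bmp2 and Bmp7 had none. A GC box was present for 5 of the 7, with 6 matches for Acvr1, 4 for Bmpr1a, and 1 each for Bmp4, Bmp6 and Bmpr2. The 3 windows of Bmpr1b held none. Among all 32851 windows of this length, 32.7% held at least 1. G and C made up 63.2% of the Bmp4 window and 42.8% of the Bmp5 window, against a median of 52.4% over all windows.

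The libraries matched their labels. Sp8 was at 0.766, 0.460 and 1.14 FPKM in Sp8 null embryos 1, 2 and 3 and at 8.35, 10.97 and 13.5 FPKM in wild-type embryos 1, 2 and 3. Absolute depth is unknown. Relative to wild-type embryo 1, the depths of the other libraries were between 0.842 and 1.03. Between 11835 and 12245 genes per library were at 1 FPKM or more. Surface ectoderm markers were all present, with 14 of 14 tested. Their sum was 916 to 1191 FPKM in Sp8 null and 1129 to 1247 FPKM in wild type, and Epcam was the one called (lower, log2 fold change -0.53, limma adjusted p = 0.0313).

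Bmp4 (ENSMUSG00000021835; GRCm38, chromosome 14, 46383520 to 46390669, minus strand) is the ligand best known for ridge induction and for control of the Msx genes. Its level was 132, 123 and 122 FPKM in wild-type embryos 1, 2 and 3 and 41.1, 32.5 and 39.4 FPKM in Sp8 null embryos 1, 2 and 3. The groups were far apart, and the lowest wild-type library was above the highest null library. The means were 125 ± 5.59 FPKM in wild type and 37.7 ± 4.54 FPKM in Sp8 null (SD, n = 3 each), so that the null level was 30.0% of wild type. In limma the log2 difference was -1.72 (SE 0.10, 95% interval -1.94 to -1.49; limma adjusted p = 0.000124). This was the 56th largest fall and the 20th smallest p-value among the tested genes. In wild type Bmp4 was at the 97.1 percentile of tested genes by mean level. The exons of Bmp4 overlap those of Gm15217, on the other strand, by 89 bases, and Gm15217 was at no more than 0.885 FPKM in any library.

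Bmp7 (chromosome 2, 172868012 to 172940321, minus strand) encodes a ligand that can pair with BMP4 or BMP2. It was the second most abundant ligand, at 32.0, 30.8 and 30.2 FPKM in wild type and 27.3, 27.0 and 31.8 FPKM in Sp8 null. The ranges overlapped, because null embryo 3 lay within the wild-type range while the other two null libraries lay below it. The means were 31.0 ± 0.943 FPKM in wild type and 28.7 ± 2.67 FPKM in Sp8 null (SD, n = 3), with a log2 fold change of -0.11 (SE 0.08, 95% interval -0.30 to 0.08; limma adjusted p = 0.459). That interval, as a fold of FPKM + 1, runs from 0.811 to 1.06.

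Bmp2 (chromosome 2, 133552159 to 133562885, plus strand) encodes the closest relative of BMP4. Its level was 6.44, 6.79 and 3.97 FPKM in wild type and 5.53, 4.55 and 6.43 FPKM in Sp8 null. Both the highest and the lowest values were wild-type libraries, so the null libraries lay within the wild-type range. The SD was 26.8% of the mean in wild type, against 4.45% for Bmp4 and 3.04% for Bmp7. The log2 fold change was -0.03 (SE 0.19; limma adjusted p = 0.939), with a 95% interval of -0.48 to 0.41 that leaves room for folds from 0.718 to 1.33. Its sign turned in both other scalings (0.03 and 0.05).

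Bmp5 (chromosome 9, 75775364 to 75900310, plus strand) and Bmp6 (chromosome 13, 38345107 to 38500302, plus strand) belong to the BMP7-like branch of ligands and were at the low end. Bmp5 was at 1.17, 1.65 and 2.30 FPKM in wild type and 0.476, 0.690 and 0.690 FPKM in Sp8 null. The groups did not overlap, but wild type was spread over a range wider than its distance from the null libraries. The means were 1.70 ± 0.567 and 0.619 ± 0.124 FPKM (SD, n = 3), with a log2 fold change of -0.72 (SE 0.17; limma adjusted p = 0.0496). Bmp5 reached the filter only through the 3 wild-type libraries, where it is high, so its call is no support for a change in the family. Of 10 alternative fits that tested it, it was called in 2 and not in 8, with adjusted p between 0.0408 and 0.154 in limma, and with a pseudocount of 0.1 its log2 fold change was -1.30. Gm26903, an antisense gene that shares 1878 bases of exon with Bmp5, was at 1.16, 1.49 and 1.65 FPKM in wild type and 0.368, 0.417 and 0.549 FPKM in Sp8 null. Whether reads were counted by strand was not stated. Reads from the shared bases, 1878 of the 4025 exon bases of Bmp5, therefore cannot be assigned to Bmp5 or Gm26903.

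Bmp6 was at 0.317, 0.308 and 0.287 FPKM in wild type and 0.528, 0.440 and 0.363 FPKM in Sp8 null. All null values were above all wild-type values, at a level below the filter in every library. With no filter its log2 fold change was 0.15 (SE 0.06; limma adjusted p = 0.381). Its exons overlap those of Txndc5, on the other strand, by 280 bases, and Txndc5 was at 11.8 to 17.5 FPKM.

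**Figure D1:**
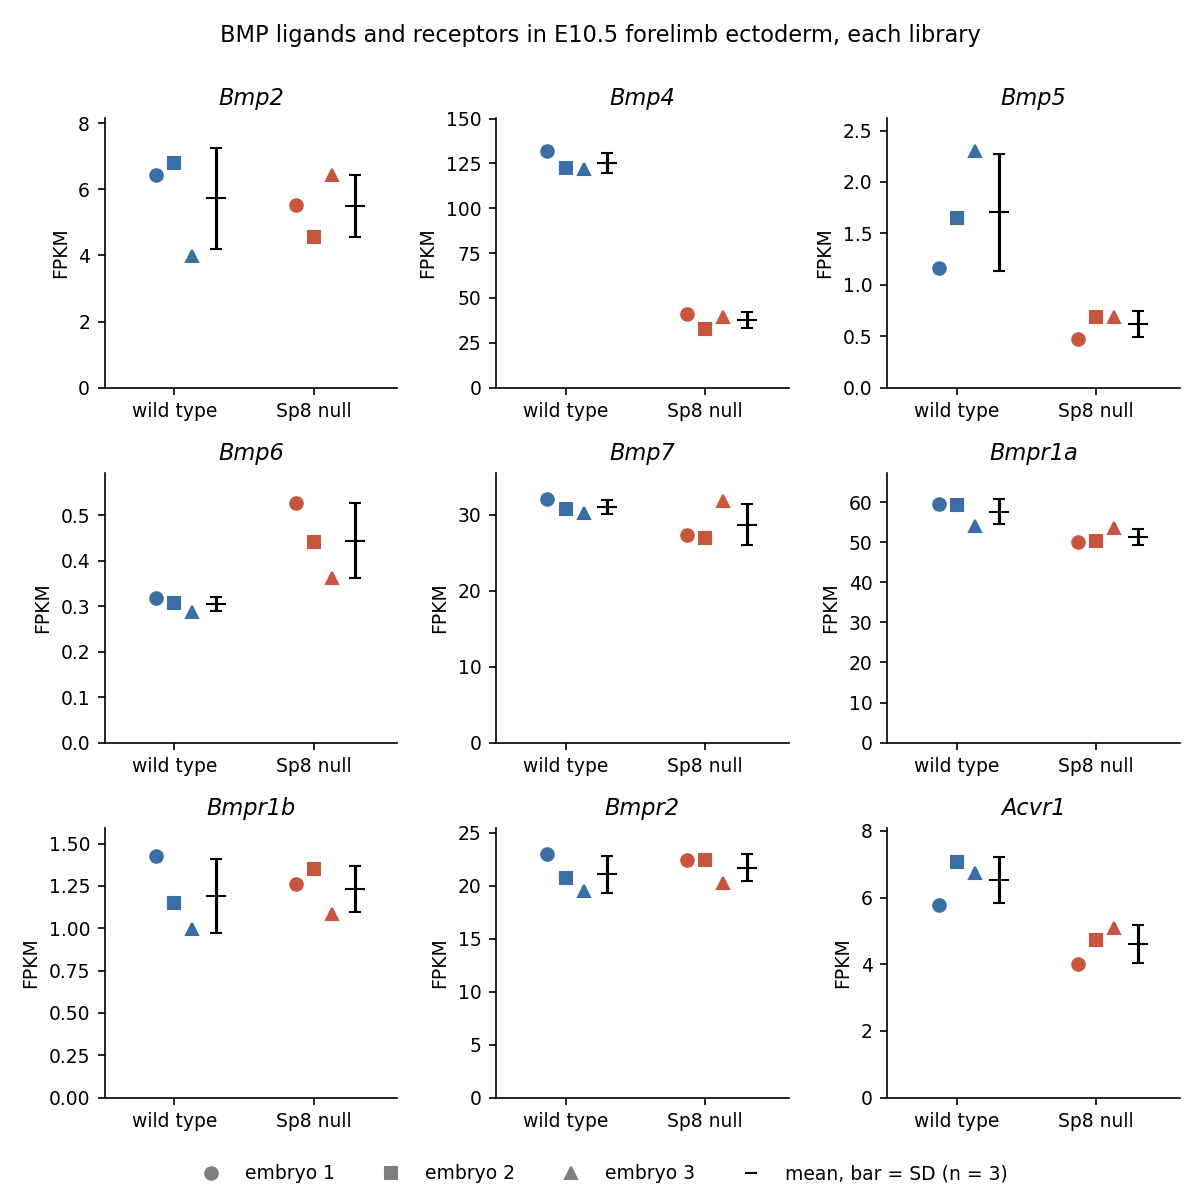
FPKM of each BMP ligand and receptor (vertical axes, each from 0 and on its own scale) in the wild-type and Sp8 null libraries. Points are single embryos, with symbols for the embryo number, and black marks give the mean with SD (n = 3). Bmp4 is at 122 to 132 FPKM in wild type and at 32.5 to 41.1 FPKM in Sp8 null, whereas the groups of Bmp2, Bmp7, Bmpr1b and Bmpr2 overlap.

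The summed level of the 5 ligands was 172, 162 and 159 FPKM in wild-type embryos 1, 2 and 3 and 74.9, 65.2 and 78.6 FPKM in Sp8 null embryos 1, 2 and 3. The means were 164 ± 6.86 FPKM and 72.9 ± 6.94 FPKM (SD, n = 3). Bmp4 made up 96.2% of the difference between these means. Without Bmp4, the sum of the other ligands was 38.7 ± 1.76 FPKM in wild type and 35.3 ± 3.51 FPKM in Sp8 null, and the libraries overlapped. These sums carry no test, since their members were chosen.

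The ligand mixture therefore differed in its proportions. Bmp4 was 76.4 ± 0.684% of summed ligand FPKM in wild type and 51.6 ± 2.81% in Sp8 null (SD, n = 3). Over the same libraries the share of Bmp7 was 18.9 ± 0.217% in wild type and 39.4 ± 2.63% in Sp8 null, and that of Bmp2 was 3.48 ± 0.872% and 7.51 ± 0.610%. The larger shares of Bmp7 and Bmp2 came with a smaller total, not with a higher level of either transcript.

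Ratios within a library were used to compare Bmp4 directly with the other ridge ligands, since they depend little on scaling between libraries. Bmp4 was 4.12, 3.98 and 4.04 times the level of Bmp7 in wild-type embryos and 1.505, 1.20 and 1.24 times in Sp8 null embryos. Against Bmp2 it was 20.5, 18.1 and 30.7 times in wild type and 7.43, 7.15 and 6.13 times in Sp8 null. Neither ratio overlapped between the groups. The difference in the mean log2 ratio of FPKM + 1 was -1.60 for Bmp7 and -1.68 for Bmp2. The two-sided exact permutation p was 0.1 for each, also after Benjamini-Hochberg adjustment over the 2 ratios, and 0.1 is the smallest p that 3 libraries against 3 can give.

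**Figure D2:**
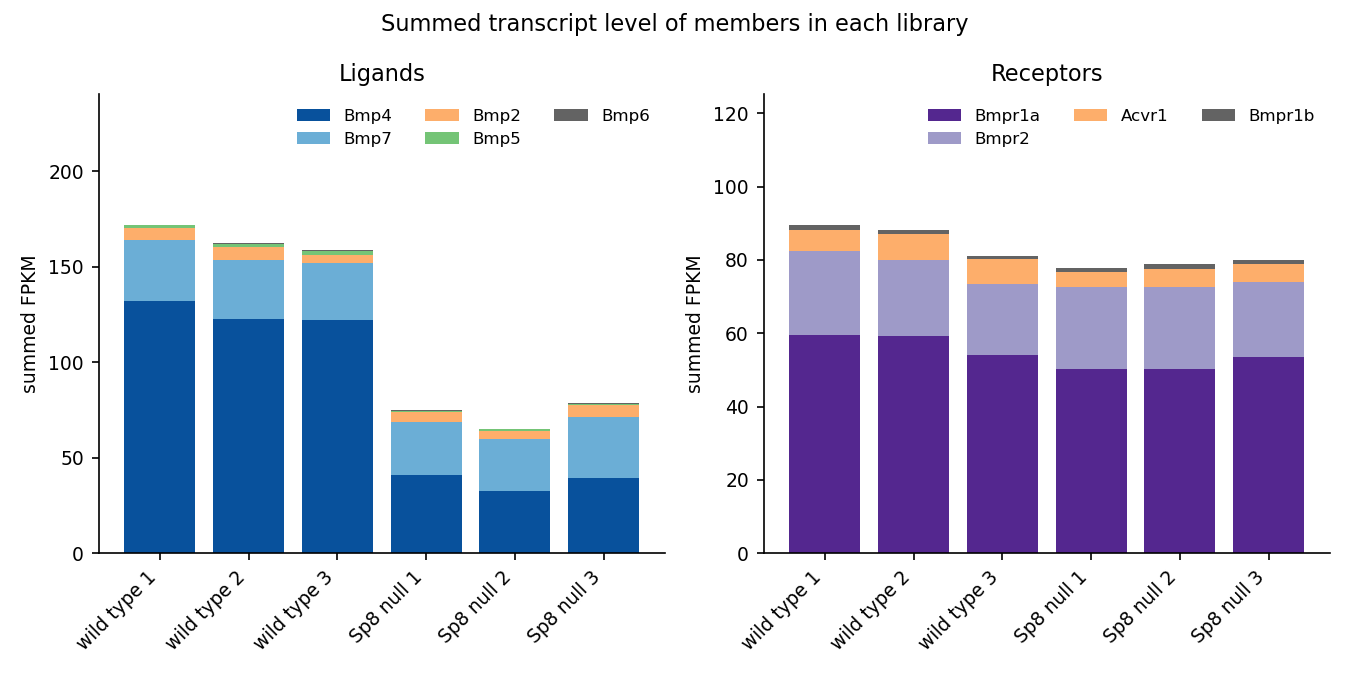
Summed FPKM of the ligands (left) and receptors (right) in each library, with bars stacked by gene and starting at 0. The ligand bars are 159 to 172 FPKM high in wild type and 65.2 to 78.6 FPKM in Sp8 null, mostly through the dark blue Bmp4 segment, and the receptor bars lie between 77.9 and 89.6 FPKM.

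Among the receptors, Bmpr1a (chromosome 14, 34410734 to 34503341, minus strand), the type I receptor for BMP2 and BMP4, was the most abundant. It was at 59.4, 59.3 and 53.9 FPKM in wild type and 50.2, 50.2 and 53.6 FPKM in Sp8 null. The groups did not overlap, but wild-type embryo 3 and null embryo 3 nearly touched. The log2 fold change was -0.16 (SE 0.07, 95% interval -0.32 to -0.000315; limma adjusted p = 0.207). Gm17110, an antisense gene at no more than 0.428 FPKM, shares 290 bases of exon with it.

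Acvr1 (chromosome 2, 58388644 to 58567157, minus strand) encodes ALK2, a type I receptor that binds BMP7-like ligands. Its level was 5.77, 7.07 and 6.75 FPKM in wild type and 3.997, 4.74 and 5.09 FPKM in Sp8 null. Every null library was below every wild-type library, and the means were 6.53 ± 0.678 and 4.61 ± 0.560 FPKM (SD, n = 3). The log2 fold change was -0.42 (SE 0.11, 95% interval -0.69 to -0.16), and the adjusted p of 0.0688 in limma missed the threshold. It also missed it in each of 14 alternative fits, with adjusted p from 0.0506 to 0.238 in limma. The groups of 4 of the 8 tested members, Bmp4, Bmp5, Bmpr1a and Acvr1, did not overlap, and this held for 29.8% of all tested genes.

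Bmpr2 (chromosome 1, 59763400 to 59879014, plus strand) encodes the type II receptor specific to BMPs. It was at 23.0, 20.7 and 19.5 FPKM in wild type and 22.4, 22.5 and 20.2 FPKM in Sp8 null, with the null range inside the wild-type range. The log2 fold change was 0.04 (SE 0.09; limma adjusted p = 0.798), and the 95% interval allows folds of 0.897 to 1.18. Bmpr1b (chromosome 3, 141837136 to 142169425, minus strand) encodes a type I receptor best known from cartilage condensations. It was low, at 1.43, 1.15 and 0.998 FPKM in wild type and 1.26, 1.35 and 1.08 FPKM in Sp8 null, with overlapping ranges (limma log2 fold change 0.03 ± 0.12 (SE), adjusted p = 0.916).

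The summed receptor level was 86.3 ± 4.52 FPKM in wild type and 78.9 ± 1.103 FPKM in Sp8 null (SD, n = 3), or 91.4% of wild type. The share of Bmpr1a was close: 66.7 ± 0.493% of the sum in wild type and 65.1 ± 1.72% in Sp8 null. That of Bmpr2 was 24.4 ± 1.14% in wild type and 27.5 ± 1.96% in Sp8 null, with overlapping libraries. The share of Acvr1 was 7.59 ± 1.01% in wild type and 5.84 ± 0.634% in Sp8 null, and its libraries did not overlap. Among the 8 tested members of both kinds, 6 had a lower mean and the median log2 fold change was -0.14. Over all tested genes 61.3% had a lower mean, and the median was -0.06.

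**Figure D3:**
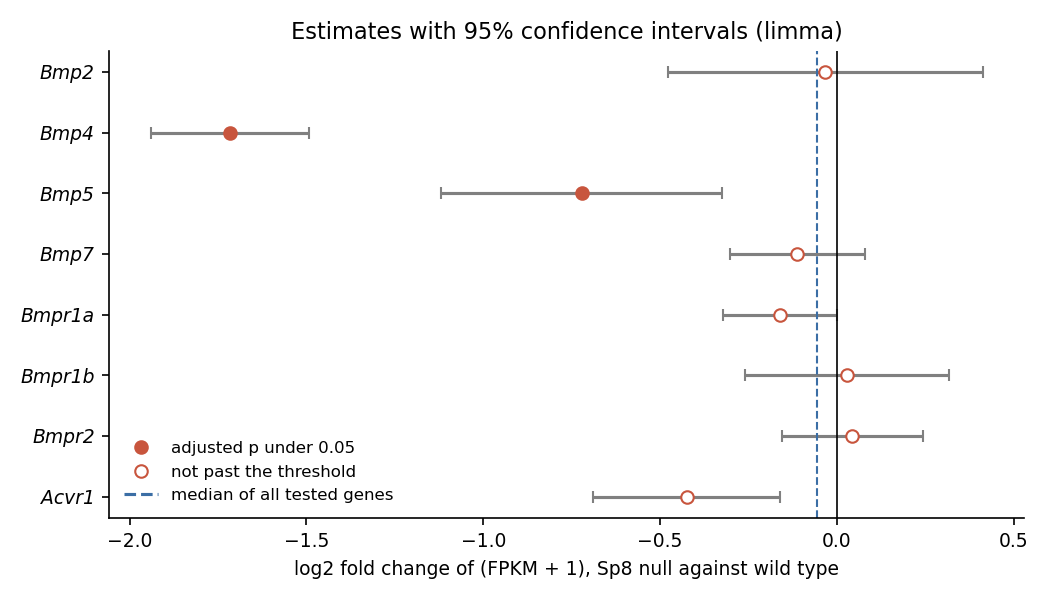
Log2 fold change of FPKM + 1 (horizontal axis) for the 8 tested genes, with 95% confidence intervals from limma that are not adjusted for the number of genes. Filled points passed an adjusted p of 0.05: Bmp4 at -1.72 and Bmp5 at -0.72. The dashed line marks the median of all tested genes, -0.06.

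The order of levels differed between the genotypes. In wild type it ran from Bmp4 through Bmpr1a, Bmp7, Bmpr2, Acvr1, Bmp2, Bmp5 and Bmpr1b to Bmp6. The ranges of neighbours overlapped for Acvr1 and Bmp2 and for Bmp5 and Bmpr1b, and for no other pair. In Sp8 null, Bmpr1a (51.3 FPKM) was above Bmp4 (37.7 FPKM), and Bmp7, Bmpr2, Bmp2, Acvr1, Bmpr1b, Bmp5 and Bmp6 followed. There Bmp2 overlapped Acvr1 and Bmp5 overlapped Bmp6.

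Bmp4 is known from both the ridge and the underlying mesenchyme, so the markers of both were set beside it. The summed level of 13 apical ridge markers was 175 to 188 FPKM in wild type and 17.2 to 29.4 FPKM in Sp8 null, which is 13.1% of wild type by the means. This list holds Sp8 itself, whose loss is set by the genotype. Without Sp8 the sum of 12 genes was 167 to 177 FPKM in wild type and 16.7 to 28.3 FPKM in Sp8 null, or 13.5% of wild type. Of the 10 tested genes other than Sp8, 8 were called, all lower, and 3 of these, Fgf4, Fgf9 and Rspo2, reached the filter through wild type alone. Fgf8, the main ridge signal, was at 32.5 ± 3.10 FPKM in wild type and 0.645 ± 0.447 FPKM in Sp8 null (SD, n = 3). In whole ectoderm, fewer ridge cells and less RNA per cell cannot be told apart. The sum of 12 limb mesenchyme markers was 102 to 146 FPKM in wild type and 119 to 231 FPKM in Sp8 null. The highest value was that of null embryo 2, which also had the lowest Bmp4, 32.5 FPKM. Without that embryo the log2 fold change of Bmp4 was -1.62 (limma adjusted p = 9.91e-05). One mesenchymal marker was called, Lmx1b, which was higher (log2 fold change 1.07, limma adjusted p = 0.0166). Of the 9 tested, 6 had a positive and 3 a negative log2 fold change. The largest fall was that of Pdgfra, at 19.8 to 23.8 FPKM in wild type and 6.01 to 19.5 FPKM in Sp8 null. It was not called (log2 fold change -1.15, limma adjusted p = 0.120).

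Markers of endothelium and macrophages were low. The sum of 9 endothelial markers was 2.05 to 3.08 FPKM in wild type and 2.51 to 4.44 FPKM in Sp8 null, most of it Egfl7, at 1.82 to 2.84 and 2.26 to 3.16 FPKM. In wild type, 4 endothelial markers, Cdh5, Tie1, Cldn5 and Emcn, were listed at 0 in every library, and in Sp8 null none was. For Tie1, Cldn5 and Emcn this rested on null embryo 1 alone, at 0.0286, 0.0228 and 0.492 FPKM. They were at 0 in null embryos 2 and 3. The sum of 7 macrophage markers was 0 to 0.855 FPKM in wild type and 1.02 to 1.81 FPKM in Sp8 null, so that these groups did not overlap. Of that list C1qa was at 0 in every wild-type library, and above 0 only in null embryo 3, at 0.0273 FPKM. Erythroid markers ranged from 11.4 to 417 FPKM in wild type and from 61.5 to 160.3 FPKM in Sp8 null. The part of any of these cell types in the Bmp4 result was not tested.

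Further BMP pathway genes were read from lists chosen by function. Of 13 other BMP and GDF ligands, 2 were tested, Gdf11 and Gdf6, and neither was called. The highest of the untested ligands was Bmp8b, at 0.998 ± 0.0568 FPKM in wild type and 0.711 ± 0.173 FPKM in Sp8 null (SD, n = 3). Gdf11 was the most abundant, at 6.70 ± 0.569 FPKM in wild type and 5.78 ± 0.753 FPKM in Sp8 null (SD, n = 3), below Bmp4 and Bmp7 in every library. Of 12 other receptors and co-receptors, 8 were tested and none was called, with a median log2 fold change of 0.03. The most abundant was Tgfbr1, a type I receptor for TGF-beta, at 47.7 ± 3.90 FPKM in wild type and 51.1 ± 3.79 FPKM in Sp8 null (limma adjusted p = 0.541). By the mean of all 6 libraries the highest untested one was Acvrl1, at 0.049 FPKM in wild type and 0.0374 FPKM in Sp8 null. In Sp8 null Hfe2, also untested, was higher, at 0.0396 FPKM. Acvr2b and Acvr2a, type II receptors shared by BMPs and activins, were at 33.2 ± 2.08 and 17.7 ± 2.37 FPKM in wild type and 28.6 ± 1.44 and 15.98 ± 0.842 FPKM in Sp8 null.

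Proteases listed for ligand processing, among them the proprotein convertases that release mature ligands from their precursors, were also measured. Of 7 processing proteases, 5 were tested and 2 were called, both lower. Pcsk5 was at 8.17, 7.76 and 6.58 FPKM in wild type and 4.05, 3.12 and 4.38 FPKM in Sp8 null (log2 fold change -0.81, limma adjusted p = 0.0132). Pcsk6 was at 1.56, 1.36 and 1.54 FPKM and 0.456, 0.209 and 0.476 FPKM (log2 fold change -0.85, limma adjusted p = 0.0106), and reached the filter through wild type alone. Furin, the convertase best known for BMP4, was narrowly the most abundant uncalled protease by the mean of all 6 libraries (log2 fold change 0.13, limma adjusted p = 0.459). In wild type Bmp1, also uncalled, was higher, at 4.52 FPKM against 4.05 FPKM for Furin. In Sp8 null Furin was higher, at 4.52 FPKM against 4.05 FPKM for Bmp1. Tll1 was the highest untested protease of the list, at 0.135 FPKM in wild type and 0.3196 FPKM in Sp8 null on average.

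Extracellular antagonists and modulators went both ways. Of 17 listed, 7 were tested, with 3 called higher (Smoc1, Smoc2 and Sostdc1) and 1 lower (Twsg1). Sostdc1, an ectodermal inhibitor of BMP and Wnt signals, was at 14.4, 13.5 and 11.9 FPKM in wild type and 23.2, 19.3 and 18.6 FPKM in Sp8 null. Twsg1, a BMP-binding protein, was at 48.3, 47.5 and 43.2 FPKM in wild type and 32.8, 34.5 and 37.2 FPKM in Sp8 null. Fstl1, a secreted follistatin-like protein, was the most abundant uncalled one, at 45.2 ± 3.44 FPKM in wild type and 35.3 ± 5.88 FPKM in Sp8 null (SD, n = 3, limma adjusted p = 0.123). By the mean of all 6 libraries Chrdl1 was the highest untested one, at 0.506 FPKM in wild type and 0.998 FPKM in Sp8 null. In Sp8 null Nbl1, also untested, was higher, at 1.15 FPKM on average and 2.21 FPKM in null embryo 2. Its wild-type mean was 0.278 FPKM, and its groups did not overlap. Grem1, a mesenchymal antagonist, was at 8.12, 1.32 and 2.41 FPKM in wild type and 3.67, 25.7 and 6.96 FPKM in Sp8 null, and was not called; the highest value was again that of null embryo 2.

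Inside the cell, 1 of 5 tested SMAD pathway transducers was called. Smad1 was higher in Sp8 null, at 15.3, 15.9 and 14.6 FPKM against 10.7, 10.6 and 9.27 FPKM (log2 fold change 0.54, limma adjusted p = 0.0116). Map3k7, which encodes the kinase TAK1, was the most abundant uncalled one, at 71.9 ± 6.28 FPKM in wild type and 67.7 ± 6.88 FPKM in Sp8 null (SD, n = 3; limma adjusted p = 0.632), and Smad9 was untested, at 0.133 and 0.0217 FPKM on average. Smad5, the other abundant receptor SMAD, was not called (log2 fold change -0.26, limma adjusted p = 0.0738). All 9 BMP response genes were tested, 7 were called, all lower, and their median log2 fold change was -1.23. Msx2, a homeobox gene of the ridge, was at 47.3, 48.8 and 44.5 FPKM in wild type and 13.9, 13.4 and 13.1 FPKM in Sp8 null, a log2 fold change of -1.72, which is close to that of Bmp4. The log2 fold changes of the other called genes were -2.57 for Bambi, a decoy receptor, -1.46 for Id1, -1.29 for Id3, -1.23 for Msx1, -0.72 for Id2 and -0.69 for Id4; Smad6 and Smad7 were not called. Of these 9 genes, 3 reached the filter through wild type alone: Id4, Bambi and Smad6.

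**Figure D4:**
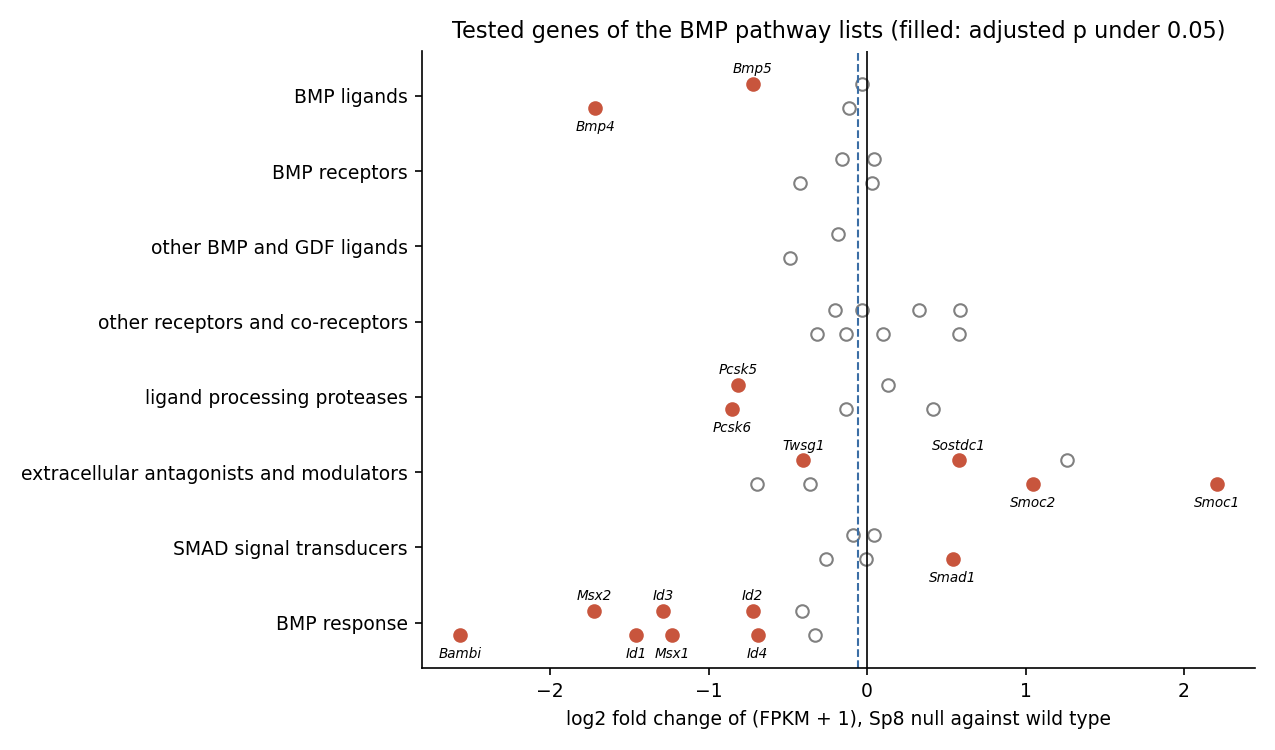
Log2 fold change of FPKM + 1 (horizontal axis) for each tested gene of 8 BMP pathway lists (rows). Filled and named points passed an adjusted p of 0.05 in limma. The 7 called BMP response genes lie on the left with Bmp4, Smoc1 and Smoc2 lie on the right, and no receptor is filled.

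The tested genes whose levels followed Bmp4 most closely, by Pearson's r of log2(FPKM + 1) over the 6 libraries, were Adamts18, Slitrk4, Crot, Spry1 and Lrr1, with r from 0.998 to 0.999. This is a description of 6 points that fall into 2 genotypes. The size of the difference was not the same: the log2 fold change was -1.68 for Adamts18, -1.79 for Slitrk4 and -1.55 for Spry1, but -0.34 for Crot and -0.19 for Lrr1.

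The authors' deposited table gave a mean per group on a normalized scale of read counts. In the authors' deposited table Bmp4 was at 7775.08 in wild type and 2363.98 in Sp8 null, with a fold change of -3.17. The fold change in the authors' deposited table was -2.06 for Bmp5, -1.34 for Acvr1, -1.1 for Bmpr1a, -1.05 for Bmp7 and 1.29 for Bmp6, and within 1.03 in size for Bmp2, Bmpr1b and Bmpr2. As p-values, the authors' deposited table listed 0 for Bmp4 and Bmp5, 5.4e-05 for Acvr1 and 0.0203 for Bmpr1a. It was 0.0932 for Bmp6, and above this for the other 4 genes. Whether the p-values in the authors' deposited table were adjusted was not stated; without adjustment, limma on FPKM gave p = 0.0064 for Acvr1 and 0.0497 for Bmpr1a, also under 0.05. The means in the authors' deposited table also show the depth behind the low genes: Bmp6 rested on 39.95 and 57.4 normalized counts and Bmp5 on 211.53 and 87.36, in wild type and Sp8 null.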

How the data were processed

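Values for every gene came from a single table. Per the file headers the authors deposited FPKM for each of the 6 libraries, with gene models of Ensembl build 87. Per the submitters' processing notes the tools included TopHat2, Cufflinks and DESeq2 on GRCm38, with roles, versions and use of strand not given in the sources used here. Libraries were made from polyadenylated RNA with the TruSeq v2 kit after trypsin separation of the ectoderm, per the labels' protocols. The authors' deposited columns also held a mean signal per group, a signed fold score and a p-value, which are quoted as the authors' own results; control was taken for wild type.

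Because values were FPKM, log2(FPKM + 1) was modelled in limma 3.58.1 (R 4.3.3) by genotype alone, with a mean-variance trend, for genes at 1 FPKM or more in at least 3 libraries. P-values are two-sided and adjusted by Benjamini-Hochberg over 12133 genes. The fit was tested on simulated data. The alternatives changed the pseudocount, filter, scaling, variance trend, covariates or libraries. Depth is known only in relative terms, from the commonest ratio of low FPKM values, so no counting interval is given.

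The 9 members and all lists were chosen with earlier results of these data known. Named are all members, the called genes and the highest untested gene of each pathway list, the marker sums with defining markers, and the 5 genes most like Bmp4. Other genes, such as the most abundant uncalled one of each list, Acvr2a, Acvr2b, Bmp1, Grem1, Hfe2, Nbl1, Pdgfra and Smad5, were chosen after their values were seen. In these lists, highest and most abundant refer to the mean over all 6 libraries. Coordinates and exon overlaps are from GENCODE M21 (GRCm38), which held 49109 of the 49452 identifiers.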

Additional observations from a re-analysis of the deposited data

How the results depend on the processing

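Bmp4 was called lower in all 14 alternatives, with a log2 fold change from -1.78 to -1.62. Bmp7, Bmpr1a and Acvr1 kept a negative sign and stayed uncalled in all 14. The 2 members called lower became 1, Bmp4, with a pseudocount of 0.1, no filter, a mean of at least 5 FPKM, either scaling and the replicate block, and in each of the 6 fits with one library left out (range 1 to 1). Bmp5 was no longer tested with a mean of at least 5 FPKM or without any one wild-type library, since it then misses the filter; elsewhere the cause was not tested. No member was called higher in any fit. Bmp2 had a log2 fold change of 0.031 under median-of-ratios and 0.051 under upper-quartile scaling. With one library left out, it ranged from -0.24 to 0.087, Bmpr1b from -0.035 to 0.11 and Bmpr2 from -0.0082 to 0.11.

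Over all tested genes 829 were called, against 342 with no filter (27766 genes tested), 545 when the first digit of each sample's name (4 or 5) was a covariate, and 213 to 665 with one library left out, lowest without wild-type embryo 2. The calls higher in Sp8 null were 24.6% of all calls, 37.2% under median-of-ratios and 41.7% under upper-quartile scaling. Embryo numbers gave no pairing: deviations of same-numbered libraries correlated at -0.16, -0.14 and -0.07, and 0 of 6 libraries correlated best with its own number. With the replicate block 328 genes were called and Bmp5 was not (limma adjusted p = 0.0732); Bmp4 was (0.000805). Leaving Sp8 out of the ridge markers, chosen after seeing the data, moved their null level from 13.1% to 13.5% of wild type. The number of FPKM libraries, 3 per group, limits what could be detected among genes near 1 FPKM.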
